A study of Homo sapiens with 30 samples.

Results

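The genes described here encode the proteins of the cytosolic ribosome. They were chosen by symbol: RPL or RPS followed by a number, with an X, A or L suffix allowed, plus the stalk and RPSA symbols, on probe sets that carry exactly 1 symbol, taking for each gene the probe set with the highest mean over all arrays. The rule uses no measured change, but it was chosen with earlier results of these data known. This gave 56 genes of the 11963 tested, 35 of the large (60S) and 21 of the small (40S) subunit. RNA came from cultured human small airway epithelial (SAE) cells of a commercial supplier, Lonza, grown attached in flasks in the supplier's airway medium. Unexposed control cultures at 1 h and at 24 h were set beside cultures given multi-walled carbon nanotubes (MWCNT) or titanium dioxide nanobelts (TiO2), each at 10 or 100 ug/ml for 1 or 24 h, which makes 10 groups. Each group held 3 arrays that the labels call biological replicates, and whether those came from different donors or passages is not stated. Particles were added straight into the medium, and only cells still attached at harvest gave RNA.

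A ribosome joins a small subunit, which reads the messenger RNA, to a large subunit, which forms the peptide bonds. Each subunit is built in the nucleolus on ribosomal RNA from its proteins in equal proportions, so the messenger RNAs of these proteins are abundant and are usually kept at similar proportions. Most of them begin with a C followed by a run of pyrimidines, the terminal oligopyrimidine (TOP) tract, through which the kinase complex mTORC1 and the protein LARP1 control the translation and the stability of these messages. A few core proteins have paralogs, near copies encoded by a separate gene and often restricted to certain tissues. An array of this kind measures the message and gives no reading of translation or of protein.

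The tract at the start is the sequence feature that most of these genes share, and it is shown here for genes that the later comparisons turn on, with 2 paralogs that lack it. Each sequence runs 5′ to 3′ over the 15 bases before and the 15 bases from the annotated start in the RefSeq promoter table (GRCh38.p14), and capitals mark the longest run, where there is one, that opens with C and holds at least 4 further bases that are each C or T, on the transcribed strand.
RPL35 (chr9:124861943-124861972, minus strand): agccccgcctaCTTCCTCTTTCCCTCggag
RPL36AL (chr14:49620612-49620641, minus strand): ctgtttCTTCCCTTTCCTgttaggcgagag
RPLP2 (chr11:809952-809981, plus strand): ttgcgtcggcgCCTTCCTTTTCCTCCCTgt
RPS25 (chr11:119018329-119018358, minus strand): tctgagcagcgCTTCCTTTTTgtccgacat
RPS27 (chr1:153990747-153990776, plus strand): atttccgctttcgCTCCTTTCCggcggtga
RPS27L (chr15:63157463-63157492, minus strand): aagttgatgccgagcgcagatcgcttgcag
RPL10L (chr14:46651767-46651796, minus strand): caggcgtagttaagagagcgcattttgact
RPS27 and its paralog RPS27L are the pair to compare: the first has a tract across its start and the second has none in the window. In RPL36AL the tract crosses the annotated start and ends 3 bases into the message, too soon for the start to count below as a C followed by 4 pyrimidines.

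The promoter table held 48 of the 56 genes. For each of these the first listed promoter was used, whereas the share of all promoters counts every entry of the table. In 32 of them (66.7%) the annotated start was a C followed by at least 4 pyrimidines, against 4.07% of all 35116 promoters in the table. Allowing such a C up to 10 bases either side of the start gave 42 of 48 (87.5%), against 33.5% of all promoters. These are counts of letters at annotated starts, and no measured start was used. Not in the table were RPL23A, RPL37, RPL3L, RPL39L, RPL7, RPL8, RPL30 and RPS15A.

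The arrays were closely matched in scale, with array medians between 7.15 and 7.21 on the log2 scale, and replicates of a group correlated at 0.9953 to 0.9989 over all genes. The number of arrays limits the precision. Of the markers of epithelium, KRT7, KRT8, KRT18 and CDH1 lay above the table's median of 7.179, while EPCAM at 6.9 and KRT19 at 5.89 lay below it. Of the markers of airway basal cells, KRT5, ITGA6, ITGB4 and S100A2 lay above it, whereas KRT14 at 3.94, KRT15 at 4.99 and LAMB3 at 6.04 lay below. None of 4 secretory, 4 ciliated or 6 endothelial markers exceeded the median. It was exceeded by 1 of 7 immune, 2 of 7 fibroblast and 2 of 5 alveolar markers.

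The ribosomal protein probe sets were among the brightest on the array. Of the 56 genes, 47 were among the 100 brightest of the 11963, 50 had a mean above 13 and 26 a mean above 14, where the highest value of the whole table was 14.65. RPL41, the smallest ribosomal protein, averaged 14.55, RPS18 of the small subunit's head 14.46 and RPL37A of the large subunit 14.45. At the other end stood RPL3L at 5.248, RPL10L at 6.754 and RPLP2 at 7.241, then RPL27A at 8.357 and RPL39L at 10.19. RPL3L and RPL10L are paralogs best known from muscle and testis, and both lay below the table's median. RPLP2 is a core stalk protein and RPL27A a core protein of the large subunit, so their low readings describe these probe sets: the brightness of a probe set also depends on its probes, and the order of genes here is no order of transcript amounts. By the array's naming, 28 of the 56 probe sets were of the kind shared within a gene family (suffix _s_at), 16 contained probes that can bind other sequences (_x_at) and 12 neither. Processed pseudogenes and near copies of these genes can therefore contribute to a reading, which was not tested.

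**Figure D1:**
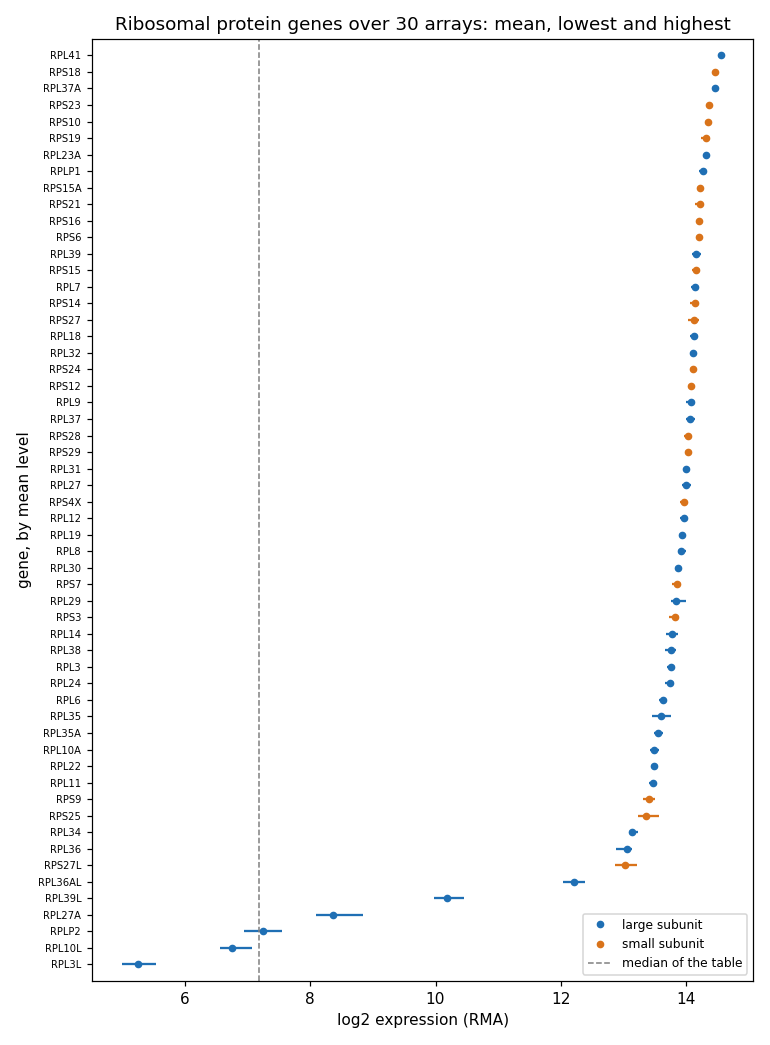
Log2 expression of each of the 56 ribosomal protein genes: the point is the mean over 30 arrays and the line runs from the lowest to the highest array, blue for the large and orange for the small subunit. Except for RPL36AL, RPL39L, RPL27A, RPLP2, RPL10L and RPL3L, all genes lie above 13, and the dashed line marks the table's median of 7.179.

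Levels of these genes varied little over the 30 arrays. The median standard deviation (SD) within groups was 0.0271 log2 units for the members, against 0.102 for all genes. The median distance between a gene's lowest and highest group mean was 0.0683 for the members and 0.294 for all genes. Bright genes in general varied less: the 300 other genes at least as bright as the dimmest member above 12 had a median SD of 0.0427 and a median range of group means of 0.167. How far the position at the top of the scale sets these small values was not tested. The widest ranges belonged to RPLP2 (0.321), RPL3L (0.309) and RPL10L (0.303), the 3 dimmest members, followed by RPL36AL (0.269), RPS27L (0.261) and RPL27A (0.250). Of the members above 13, RPL35 (0.213) and RPS25 (0.182) came next.

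Averaged over the 56 genes, the level per array stayed between 13.293 and 13.363, a span of 0.07. Control cultures at 1 h averaged 13.347 ± 0.014 (SD, n = 3) and at 24 h 13.322 ± 0.0059. The lowest group mean was 13.314 ± 0.0075 after TiO2 at 10 ug/ml for 1 h. With 24 h of TiO2 at 100 ug/ml the mean was again 13.347 ± 0.0084. All RNA of a culture was measured together, so fewer cells of a kind and less RNA per cell cannot be told apart. The large and small subunit members each spanned about as little, from 12.886 to 12.957 and from 13.973 to 14.043. The scaling of the deposited values gives all arrays the same distribution, and 47 of these genes are among the 100 brightest. A shift shared by them can therefore be reduced by the scaling, and how far it holds the mean steady was not tested.

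**Figure D2:**
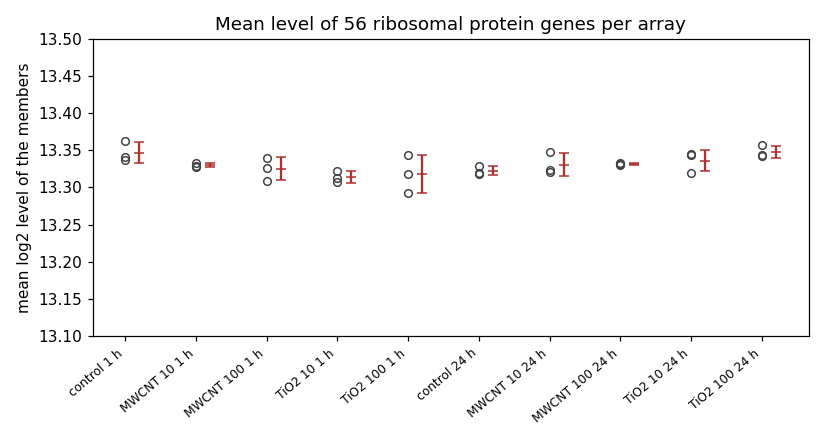
Mean log2 level of the 56 ribosomal protein genes in each array (open circles), with the mean and SD of the 3 arrays of each group (red bars); the vertical axis spans 0.4 log2 units and does not start at 0. All 30 arrays lie between 13.293 and 13.363.

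The comparisons with controls at 1 h ask whether contact with a particle altered these messages early. Over these 4 comparisons 1 gene passed the threshold in 1 comparison, an adjusted p under 0.05 by limma over all 11963 genes: RPL35 fell after TiO2 at 100 ug/ml. RPL35 is a large-subunit protein at the rim of the tunnel through which the new protein leaves. Its levels were 13.71, 13.68 and 13.75 in the control arrays and 13.47, 13.59 and 13.57 after TiO2 at 100 ug/ml, with no overlap. The difference was -0.17 ± 0.04 log2 units (SE, adjusted p = 0.0165). The 3 arrays at 10 ug/ml of TiO2 read 13.56, 13.58 and 13.55, also below every control array (-0.15 ± 0.04, adjusted p = 0.0894). With MWCNT at 100 ug/ml, where the arrays read 13.62, 13.58 and 13.65, the difference was -0.10 ± 0.04 (adjusted p = 0.311). The RPL35 call was lost without control replicate 1 (adjusted p = 0.0586), control replicate 3 (0.0859) or TiO2 replicate 1 (0.13), and in a fit of the compared groups alone (0.665). With a variance prior that follows intensity and is robust to outliers, RPL36 and RPS15 fell there too, by 0.15 and 0.09, and RPL35 fell at 10 ug/ml (adjusted p = 0.0194, 0.00913 and 0.00927). In that fit 5.36% of the members and 2.45% of all genes were called for TiO2 at 100 ug/ml. At 10 ug/ml of TiO2 it was 1.79% and 0.828%.

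Read against the background, 1 called gene of 56 (1.79%) after TiO2 at 100 ug/ml stands beside 2.12% of all genes. With no adjustment 5 members had a p under 0.05 there, all downward, beside 11% of all genes. No member was called in the other 1 h comparisons, where limma called 0.0669% of all genes for MWCNT at 10 ug/ml, 1.7% for MWCNT at 100 ug/ml and 0.711% for TiO2 at 10 ug/ml. Without adjustment, p was under 0.05 for 0, 2 and 3 members, beside 11.6%, 11.9% and 7.56% of all genes. The members' median difference was -0.008 and -0.016 for MWCNT at 10 and 100 ug/ml, and -0.028 and -0.030 for TiO2. The medians of all genes were -0.016, -0.021, -0.018 and -0.028. Cyclic loess brought the members' medians to -0.000161 for MWCNT at 100 ug/ml and to -0.0148 and -0.0134 for TiO2 at 10 and 100 ug/ml. Leaving out 1 array at a time moved the last of these comparisons, without loess, between -0.0341 (without TiO2 replicate 3) and -0.0115 (without TiO2 replicate 1). All 4 comparisons use the same 3 control arrays, so they are not separate observations of the direction.

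Members that did not pass the threshold at 1 h show the size of what was left. After MWCNT at 10 ug/ml the differences ran from -0.16 ± 0.14 for RPL27A (adjusted p = 0.662) to 0.05 ± 0.04 for RPL24 (adjusted p = 0.623). After MWCNT at 100 ug/ml they ran from the value of RPL35 to 0.03 ± 0.03 for RPS6 (adjusted p = 0.801), the small-subunit protein whose phosphorylation is used as a reading of mTORC1 activity. TiO2 at 10 ug/ml gave -0.20 ± 0.08 for RPL10L (adjusted p = 0.473) and 0.03 ± 0.03 for RPL7 (adjusted p = 0.933). The 95% interval of the difference lay within 1.2-fold in either direction for 54, 55, 54 and 54 of the 56 members for MWCNT at 10 and 100 and TiO2 at 10 and 100 ug/ml, or 96.4, 98.2, 96.4 and 96.4% of them. The shares were 57, 59.8, 63.9 and 60.8% of all genes, and 96.3, 94.3, 97.7 and 96% of the 300 other bright genes. For these members a change of the array reading beyond 1.2-fold lies outside the interval. Readings near the top of the scale can be compressed, so this sets no such limit on the message.

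The comparisons at 24 h ask the same after a day of exposure. Again 1 gene passed: RPL3L, the muscle paralog of the core protein RPL3, read higher after TiO2 at 100 ug/ml. Its arrays were at 5.26, 5.06 and 5.04 in the control and at 5.37, 5.54 and 5.37 after TiO2. The groups did not overlap, and RPL3L rose by 0.31 ± 0.09 (adjusted p = 0.0258). TiO2 at 10 ug/ml gave 5.53, 5.29 and 5.28, a difference of 0.25 ± 0.09 (adjusted p = 0.0938). All of these levels lie far below the table's median of 7.179, and RPL3 itself, at 13.76 over all arrays, had a range of group means of 0.0294. The RPL3L call was lost without control replicate 2 or 3 (adjusted p = 0.0755 and 0.0791), without TiO2 replicate 2 or 3 (0.101 and 0.0513), after cyclic loess scaling (0.0784) and in a fit of the compared groups alone (0.112).

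These counts stand beside the following background. TiO2 at 100 ug/ml at 24 h changed 13.2% of all genes by limma and 1.79% of the members. TiO2 at 10 ug/ml changed 6.05% of all genes and no member, and its smallest adjusted p among the members was 0.0938. With MWCNT limma called no gene of the 11963 at either dose, 0% in both. At an unadjusted p under 0.05 there were 5 members after TiO2 at 100 ug/ml (30.7% of all genes) and 4 at 10 ug/ml (26.4%). MWCNT gave 1 at 100 ug/ml (5.53% of all genes) and 1 at 10 ug/ml (3.25%). Of the 300 other bright genes, 6% were called after TiO2 at 100 ug/ml.

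Below the threshold after TiO2 at 100 ug/ml stood RPS25, a small-subunit protein needed by several viral internal entry sites. Its control arrays read 13.24, 13.29 and 13.37 and its TiO2 arrays 13.52, 13.48 and 13.41. These did not overlap, and the difference was 0.17 ± 0.06 (adjusted p = 0.0683). The intensity-dependent, robust variances called RPS25 (adjusted p = 0.0428), and also RPS27L and RPL35, at 0.11 and -0.10 (0.0262 and 0.0243). With TiO2 at 100 ug/ml that fit called 7.14% of the members, beside 14% of all genes. The lowest differences there were -0.16 ± 0.06 for RPL39L (adjusted p = 0.0906) and -0.10 ± 0.04 for RPL35 (adjusted p = 0.0894). At 10 ug/ml of TiO2 the differences ran from -0.17 ± 0.06 for RPL39L (adjusted p = 0.107) to the value of RPL3L given above. With MWCNT at 100 ug/ml RPS27L, a paralog of RPS27 induced by p53, had the highest difference, 0.13 ± 0.04 (unadjusted p = 0.00467, adjusted p = 0.88 by limma). Its arrays stood at 13.14, 13.15 and 13.18 against 13.06, 13.00 and 13.02 in the control, without overlap. The lowest was RPL10L at -0.08 ± 0.08 (adjusted p = 0.986). At 10 ug/ml of MWCNT the extremes were RPLP2 at -0.23 ± 0.08 and RPL3L at 0.16 ± 0.09 (adjusted p = 0.999 for both).

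The members' median difference at 24 h was 0.011 and 0.009 for MWCNT at 10 and 100 ug/ml, and 0.007 and 0.018 for TiO2, beside medians of all genes of -0.005, -0.007, -0.025 and -0.031. These small medians depend on the scaling. After cyclic loess the median for TiO2 at 100 ug/ml was -0.0203 and for TiO2 at 10 ug/ml -0.0157, and for MWCNT at 10 ug/ml it was -0.000958, all of the opposite sign. Intervals lay within 1.2-fold for 52 and 55 members with MWCNT at 10 and 100 ug/ml, and for 51 members at each dose of TiO2. As shares these were 92.9 and 98.2% with MWCNT and 91.1% at both doses of TiO2. Of the 300 other bright genes it was 98.3 and 97% with MWCNT and 96.7 and 92.3% with TiO2, and of all genes 47.6 and 43.9% with TiO2.

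**Figure D3:**
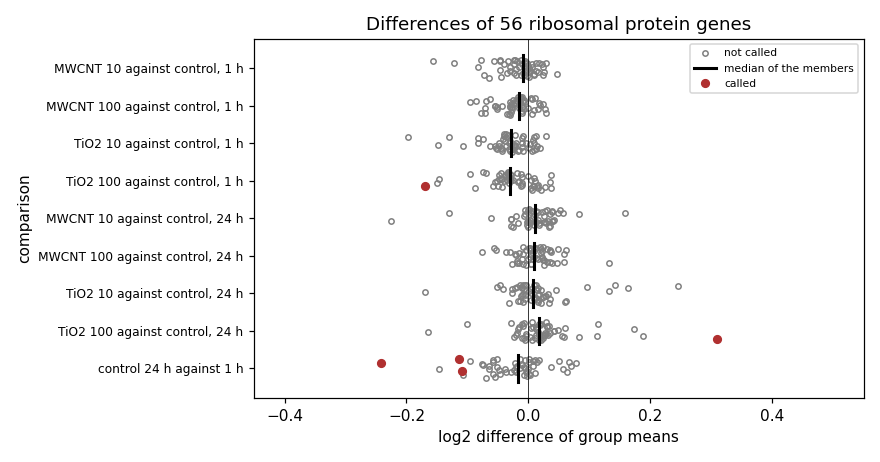
Log2 differences of group means for the 56 ribosomal protein genes in each comparison with a control and in the control over time; red points passed an adjusted p of 0.05 and black bars are the medians of the members. Every median lies within 0.03 of 0, and 5 points are red.

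By number of genes called, time in culture without particles was the largest contrast of the study. Between 1 h and 24 h the control cultures changed 31.7% of all genes by limma, and 40% of the 300 other bright genes, but 3 of the 56 members (5.36%), all of which fell. Unadjusted, 5 members had a p under 0.05, beside 40.9% of all genes. RPL36AL, a paralog of RPL36A in the large subunit, read 12.38, 12.27 and 12.37 at 1 h and 12.04, 12.15 and 12.11 at 24 h. It fell by 0.24 ± 0.04 (SE, adjusted p = 5.92e-05), and the call held in all 15 alternatives run, with adjusted p from 1.32e-06 to 0.041. Exposed cultures showed the same order: their RPL36AL levels were between 12.20 and 12.35 at 1 h and between 12.05 and 12.19 at 24 h, so that every 1 h array of the study lay above every 24 h array.

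RPL35 fell by 0.11 ± 0.04 (SE) over the same time in the control (adjusted p = 0.0309), from the 1 h levels given above to 13.65, 13.62 and 13.54. RPL38, a large-subunit protein known from its role in translating Hox messages, fell from 13.80, 13.80 and 13.84 to 13.68, 13.79 and 13.66, also by 0.11 ± 0.04 (adjusted p = 0.0236). In neither gene did the control arrays overlap, though for RPL38 the nearest arrays read 13.80 and 13.79. Exposed arrays did overlap between the times. RPL35 read 13.47 to 13.67 in them at 1 h and 13.45 to 13.60 at 24 h, and RPL38 13.72 to 13.81 and 13.71 to 13.77. The fall of RPL35 here and its fall after TiO2 at 1 h use the same control arrays of 1 h, so they are not separate observations. Both calls were lost without control replicate 3 of 1 h (adjusted p = 0.12 for RPL35 and 0.0874 for RPL38) or of 24 h (0.176 and 0.12) after cyclic loess (0.124 and 0.117) and in a fit of the compared groups alone (0.271 and 0.291). RPL35 was also lost without replicate 1 of 1 h (0.0533), and RPL38 without replicate 1 of 24 h (0.0937). The other probe sets of RPL38 are much dimmer, at 9.81 and 9.36, and RPL38 was not called with the most variable of its probe sets (-0.012, adjusted p = 0.957) or with the mean of them (-0.061, adjusted p = 0.633).

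On the other side of 0, RPL7 of the large subunit had the highest difference over time, 0.08 ± 0.03 (adjusted p = 0.0731). With the intensity-dependent, robust variances 12 members were called in the control over time (21.4%), 3 up and 9 down, beside 32.4% of all genes. They included the 3 called above, and RPL7, RPS6 and RPS4X rose in that fit, by 0.08, 0.07 and 0.06. The members' median over time was -0.017 and that of all genes -0.011, and cyclic loess turned the members' median to 0.018. The ratio of 3′ to 5′ control probe sets of ACTB, a reading of RNA length, was 0.34 log2 units in the control at 1 h (range 0.27 to 0.42) and 0.59 at 24 h (0.44 to 0.86). That of GAPDH was 0.07 at both times. The part of this in the differences over time was not tested.

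The particles were also set against each other at equal dose and time. At 1 h no member was called by limma at 10 ug/ml (0.00836% of all genes) or at 100 ug/ml (0.0167%). The counts at an unadjusted p under 0.05 were 1 and 0 members, beside 10% and 6.32% of all genes. The extremes at 10 ug/ml were -0.14 ± 0.09 for RPL3L (adjusted p = 0.614) and 0.11 ± 0.08 for RPL10L (adjusted p = 0.62). At 100 ug/ml they were -0.07 ± 0.14 for RPL27A (adjusted p = 0.965) and 0.08 ± 0.04 for RPL36 (adjusted p = 0.82).

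At 24 h and 10 ug/ml, 2 members (3.57%) were lower with MWCNT than with TiO2, beside 4.88% of all genes called. One was RPLP2, an acidic protein of the stalk that recruits the elongation factors. It read 7.10, 7.05 and 6.95 with MWCNT and 7.55, 7.38 and 7.15 with TiO2, without overlap, and the difference was -0.32 ± 0.08 (adjusted p = 0.0274). The control arrays of 24 h, at 7.31, 7.18 and 7.30, lay above those of MWCNT and overlapped those of TiO2. The other was RPL10L, the testis paralog of RPL10, at 6.63, 6.58 and 6.70 with MWCNT and 6.86, 7.07 and 6.87 with TiO2 (-0.29 ± 0.08, adjusted p = 0.0315).

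Both calls between the particles at 10 ug/ml rest on dim probe sets. A second probe set of RPLP2, at a mean of 3.47, gave 0.071, and the mean of both gave -0.125 (adjusted p = 0.37). The RPLP2 call was lost without MWCNT replicate 1 or 3 (adjusted p = 0.099 and 0.0905) or TiO2 replicate 1 or 2 (0.116 and 0.064). RPL10L was lost without any one of the MWCNT replicates (0.144, 0.0644 and 0.0569), without TiO2 replicate 2 or 3 (0.116 and 0.0638) and after cyclic loess (0.0936). Both were lost in a fit of the compared groups alone. The comparison gave 3 members at an unadjusted p under 0.05, beside 24.3% of all genes.

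At 100 ug/ml and 24 h, 1 member (1.79%) was called beside 12.2% of all genes. RPL39L, a paralog of the exit-tunnel protein RPL39, was higher with MWCNT, at 10.29, 10.34 and 10.39, than with TiO2, at 9.97, 10.20 and 10.17. The groups did not overlap and differed by 0.23 ± 0.06 (adjusted p = 0.0249). Control arrays of 24 h read 10.45, 10.17 and 10.21 and overlapped both groups. The call was lost without MWCNT replicate 2 or 3 (adjusted p = 0.0653 and 0.0991), without TiO2 replicate 1 (0.152), after cyclic loess (0.118) and in a fit of the compared groups alone (0.0661). Without adjustment 5 members had a p under 0.05, beside 28.8% of all genes, and the lowest difference was -0.25 ± 0.09 for RPL3L (adjusted p = 0.0673).

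Dose made no called difference among the members in any of 4 comparisons of 100 with 10 ug/ml. Limma called 0.635% of all genes for MWCNT at 1 h, 0.293% for TiO2 at 1 h, 0% for MWCNT at 24 h and 0.986% for TiO2 at 24 h. At an unadjusted p under 0.05 the members numbered 0, 0, 1 and 1, beside 6.6%, 4.54%, 2.24% and 10.9% of all genes. The 2 with such a p were RPLP2 for MWCNT at 24 h (0.17 ± 0.08, adjusted p = 1) and RPS27L for TiO2 at 24 h (0.09 ± 0.04, adjusted p = 0.433). The largest differences at 1 h were those of RPL27A, 0.09 ± 0.14 for MWCNT (adjusted p = 0.966) and 0.13 ± 0.14 for TiO2 (adjusted p = 1). Medians of the members lay at -0.007, 0.001, 0 and 0.013. At least 53 of the 56 intervals lay within 1.2-fold in each of these comparisons. In the same order the shares were 98.2, 98.2, 94.6 and 96.4% of the members and 62.2, 65, 68.2 and 59.1% of all genes. Of the 300 other bright genes it was 97.3, 97.7, 97.7 and 95%, close to the members.

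Whether a particle's difference from control was itself different at 24 h and at 1 h was tested directly for each particle and dose. No member was called. Of all genes limma called 0% for MWCNT at 10 ug/ml, 0.669% for MWCNT at 100 ug/ml, 0.0167% for TiO2 at 10 ug/ml and 2.2% for TiO2 at 100 ug/ml. At an unadjusted p under 0.05 the members numbered 1, 2, 3 and 5, all upward, beside 5.68%, 7.1%, 13.5% and 17.6% of all genes. Every one of these comparisons uses the same control arrays of both times, so they are not separate observations of the direction. The gene nearest the threshold was RPL36 of the large subunit with TiO2 at 100 ug/ml, at 0.23 ± 0.06 (adjusted p = 0.0554). Its control arrays read 13.13, 13.13 and 13.11 at 1 h, and the TiO2 arrays 12.88, 13.09 and 12.96. At 24 h the order was turned, with 13.04, 13.04 and 13.00 in the control and 13.07, 13.14 and 13.12 after TiO2. In the fit with intensity-dependent, robust variances RPL36 was called (adjusted p = 0.0116), and so was RPS27L, at 0.17 (adjusted p = 0.0483). These were 3.57% of the members, beside 2.52% of all genes called in that fit.

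Larger but more variable were 2 dim paralogs. RPL10L differed between the times by 0.36 ± 0.11 for TiO2 at 10 ug/ml (adjusted p = 0.198) and by 0.27 ± 0.11 at 100 ug/ml (adjusted p = 0.201). For RPL3L the values were 0.36 ± 0.13 for TiO2 at 100 ug/ml (adjusted p = 0.142) and 0.28 ± 0.13 for MWCNT at 10 ug/ml (adjusted p = 0.843). For MWCNT at 100 ug/ml RPS27L had the highest value, 0.14 ± 0.06 (adjusted p = 0.668). The lowest were RPLP2 for MWCNT, at -0.17 ± 0.11 and -0.07 ± 0.11, and RPL39L for TiO2, at -0.09 ± 0.09 and -0.11 ± 0.09. The median over the members for TiO2 at 100 ug/ml was 0.043, beside -0.006 for all genes, and after cyclic loess it was -0.0068. For TiO2 at 10 ug/ml it was 0.034 and after cyclic loess -0.00216.

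Of the 5 paralogs measured, RPL36AL and RPS27L are read brightly and RPL39L, RPL10L and RPL3L much less so. RPS27L lay between 12.86 and 13.00 in the 15 arrays of 1 h and between 13.00 and 13.21 in those of 24 h. Its core partner RPS27 had group means within 0.0796 of each other. In the control RPS27L differed by 0.07 ± 0.04 between the times (adjusted p = 0.219), and its highest group means were 13.16 ± 0.021 (SD, n = 3) with MWCNT and 13.14 ± 0.037 with TiO2, both at 100 ug/ml for 24 h. RPL39, the core partner of RPL39L, kept within 0.0673. The core partners of RPL36AL and RPL10L, which are RPL36A and RPL10, were not analysed here because their probe sets carry several symbols.

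RPL11, which with the 5S ribosomal RNA can bind and inhibit MDM2 when ribosome assembly fails, lay between 13.40 and 13.51 in all 30 arrays. RPL5, its partner there, and the stalk base RPLP0 were not analysed here. RPLP1, the other acidic stalk protein, stayed between 14.20 and 14.31, and RPS6 between 14.15 and 14.24. Of 10 measured proteins of the small subunit's head and decoding region, none was called in any comparison. Of 6 measured proteins of the exit tunnel, RPL35 alone was called.

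**Figure D4:**
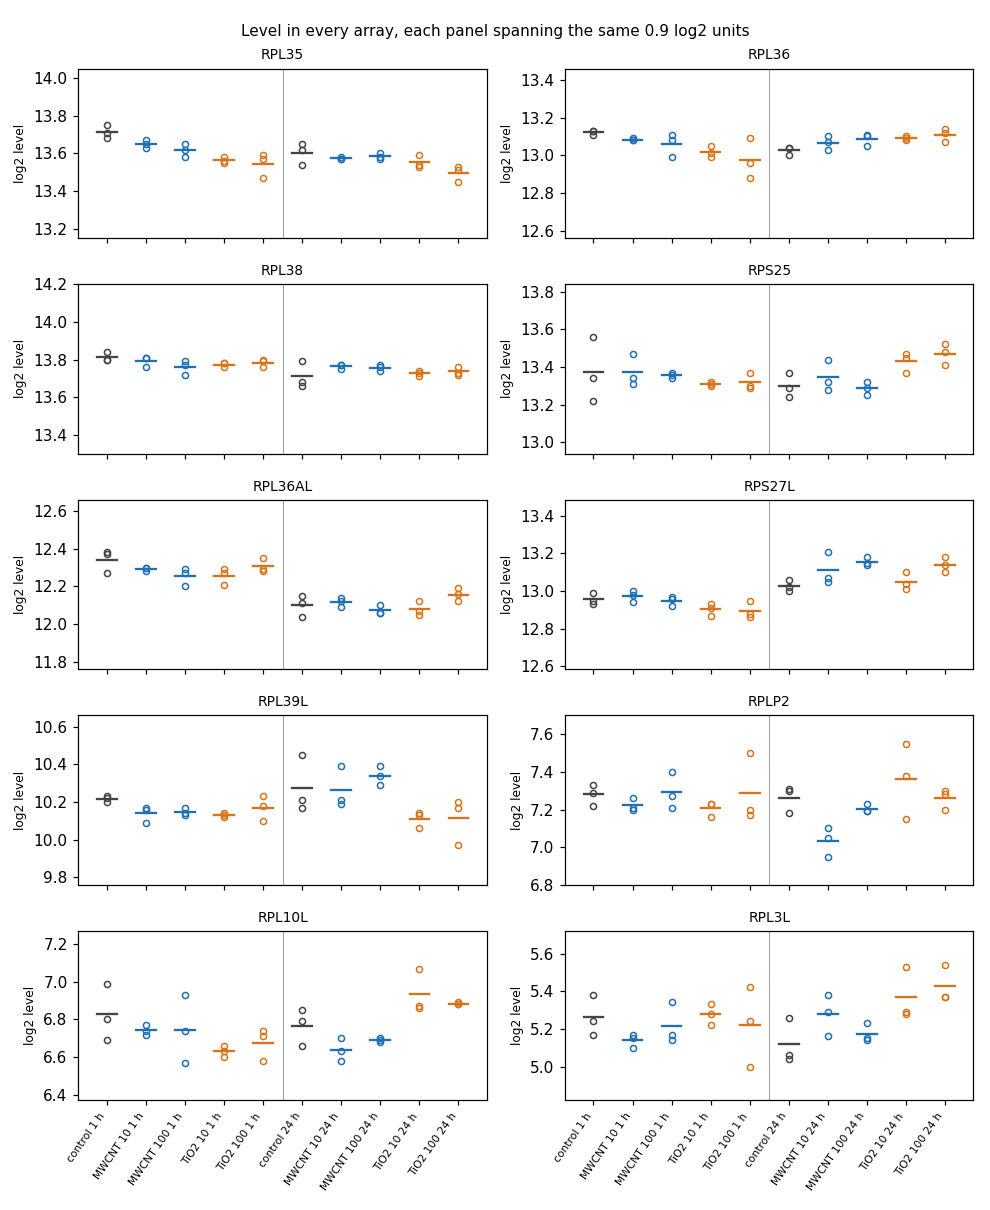
Log2 level of 10 named ribosomal protein genes in each array (circles) with group means (bars); grey is control, blue MWCNT and orange TiO2, doses are in ug/ml, and the line divides 1 h from 24 h. Each panel spans 0.9 log2 units on its own range: RPL36AL is lower in every 24 h array than in any 1 h array, while RPL38 and RPL36 move by little more than the spread of their replicates.

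The rest of the translation machinery is given from lists written from general knowledge. In the control over time, where 3 of 56 ribosomal protein genes fell, 22 of 41 measured ribosome biogenesis factors fell, 2 rose and 17 did not pass, with a median of -0.186. That is 58.5% of the list, beside 31.7% of all genes. BYSL, RRS1 and RRP12, which mature the precursors of the subunits, fell by 0.70, 0.67 and 0.66. MYC, the transcription factor that drives ribosome production, fell by 2.42 ± 0.08 (SE, adjusted p = 1.69e-17). In its list of RNA polymerase I and associated factors 5 of 13 fell and 3 rose (61.5%), among the latter TTF1, a factor that ends ribosomal RNA transcription, by 1.00 ± 0.19, and TAF1A by 0.72 ± 0.13. Of 51 mitochondrial ribosomal proteins 15 fell and 3 rose (35.3%), with MRPL20 falling by 0.35 ± 0.05. The list of initiation factors was called in both directions, 7 of 33 down and 3 up (30.3%), led by EIF5, which rose by 1.15 ± 0.11. That list also holds EIF4EBP2 and EIF4EBP1, which inhibit the initiation factor EIF4E. They are among the 7 and fell by 0.39 and 0.15.

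Other messages that begin with a TOP tract were few. Of 11 measured, 4 rose in the control over time and none fell (36.4%, beside 31.7% of all genes): VIM by 0.18, HNRNPA1 by 0.17, NAP1L1 by 0.16 and PABPC1 by 0.13. No gene of that list was called in the other 20 comparisons. In the mTORC1 list, 5 of 15 rose over time in the control and 1 fell (40%), and the inhibitor DDIT4 rose by 0.61 ± 0.10. DDIT4 fell by 0.93 ± 0.10 after MWCNT at 100 ug/ml for 1 h and by 0.54 ± 0.10 after TiO2 at the same dose. Among related proteins outside the naming rule, RPL26L1, a paralog of RPL26, fell by 0.16 ± 0.04 in the control over time (adjusted p = 0.00679).

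With TiO2 at 100 ug/ml and 24 h, where 13.2% of all genes were called, 3 of 41 biogenesis factors fell (NOP14, TBL3 and FTSJ3, by 0.22, 0.20 and 0.16) and none rose, 7.32% of the list. Of the mitochondrial ribosomal proteins 2 of 51 fell and MRPL23 rose by 0.26 ± 0.05 (5.88%). Of the 33 genes in the list of initiation factors EIF1AX rose by 0.42 ± 0.11, while EIF2B3 and EIF2B4 fell by 0.20 and 0.15 (9.09%). At 10 ug/ml of TiO2, where 6.05% of all genes were called, 4 of 41 biogenesis factors fell, among them GNL2 by 0.27 and NOP14 by 0.25, and PNO1 rose by 0.23. At 1 h EIF5 rose by 0.65 ± 0.11 and TTF1 by 1.24 ± 0.19 after TiO2 at 100 ug/ml, the comparison in which RPL35 fell. The biogenesis factors UTP20 and DDX52 rose there by 0.48 ± 0.09 and 0.42 ± 0.08. These rises were not particular to that comparison. After MWCNT at 100 ug/ml for 1 h EIF5, TTF1, UTP20 and DDX52 rose by 0.47, 0.74, 0.41 and 0.34. After TiO2 at 10 ug/ml for 1 h EIF5, TTF1 and UTP20 rose by 0.59, 1.09 and 0.54. With MWCNT against control at 24 h no gene of any list was called.

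**Figure D5:**
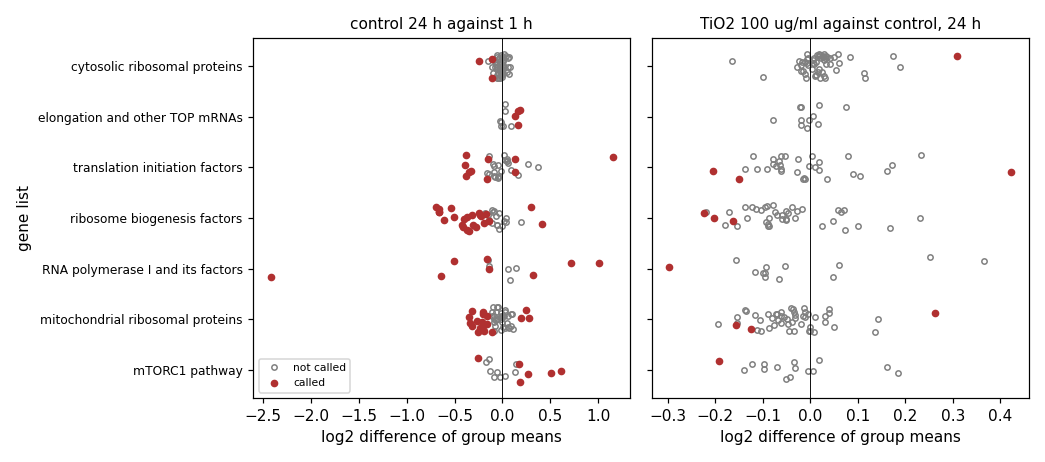
Log2 differences of the genes in 7 lists for the control over time (left) and for TiO2 at 100 ug/ml against control at 24 h (right), with genes that passed an adjusted p of 0.05 in red; the panels have different horizontal scales. On the left the ribosomal protein genes lie between -0.24 and 0.08, whereas biogenesis factors reach -0.70 and MYC lies at -2.42.

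Probe sets left out by the naming rule give a second view of the same family. There were 57 probe sets with several symbols of which at least 1 was of the member kind, with a median level of 13.82, and 16 further ribosomal protein symbols occurred only on these. They are not analysed gene by gene here. Their median difference lay between -0.030 and 0.046 over the 21 comparisons. Of the 57, 3 fell and 1 rose in the control over time, where 27.9% of all 22215 probe sets were called. In addition, 38 single-symbol probe sets belong to members but were dimmer than the tested one.

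Of these 38, 32 had a mean above the table's median, and in 10 of 672 pairings with the tested probe set the differences were more than 0.3 apart. These pairings belonged to RPL37A, RPL38, RPS12 and RPS10. The 0.3 limit is wider than any called difference of a member above 12, so it passes over smaller disagreements of bright probe sets. A second RPS7 probe set with a mean of 13.51 fell by 0.11 ± 0.03 in the control over time (adjusted p = 0.0133 by limma over all probe sets). The tested RPS7 probe set differed by -0.04 there. Of the 38, 3 fell in that comparison and none rose, beside 27.9% of all probe sets called. A second RPL37A probe set with a mean of 7.92 fell by 0.67 ± 0.10 in the control over time, while the tested one, with a mean of 14.45, differed by -0.05. Another RPL37A probe set, with a mean of 7.28, gave -0.43 ± 0.15 between MWCNT and TiO2 at 100 ug/ml and 24 h, where the tested one gave 0.01. A dim RPS12 probe set with a mean of 7.69 gave -0.30 ± 0.08 between the particles at each dose at 24 h. Which of these probe sets reads the intended message was not tested.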

How the data were processed

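Total RNA of 30 cultures was hybridised to Affymetrix arrays. The authors deposited log2 expression values per probe set, made with RMA per the submitters' processing notes (version not given). RMA sets all arrays to 1 distribution of values, so a shift shared by most messages cannot be seen, and values near the top of the scale can be compressed. A shift shared by the brightest genes, most of the members among them, can also be reduced. The table held 22277 probe sets, 62 of them controls. The platform annotation gave 19064 probe sets 1 symbol, 1043 several and 2108 none, and 19052 of the 19064 matched a RefSeq gene. For each gene the probe set with the highest mean was kept, leaving 11963 genes.

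The linear model had 1 mean for each group and was run in limma 3.58.1 (R 4.3.3, statmod 1.5.0), all 30 arrays sharing the moderated variance, with two-sided tests and Benjamini-Hochberg adjustment over all genes within a comparison at 0.05. "Rose", "fell" and "called" mean passing it. P-values set a difference of group means against the spread between cultures within groups, pooled over all groups and moderated across genes. For 3 arrays against 3 an exact permutation test cannot go below 0.10. The fit was tested on simulated data. Plots were drawn with matplotlib 3.10.9 in Python 3.11.15 (numpy 2.4.6, pandas 2.3.3).

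The members, lists and tests were chosen with earlier results of these data known. Named are up to 5 called members in each direction per comparison, or the most positive and most negative where none was called, the 3 brightest, the 3 dimmest and the 3 with the widest range of group means, the paralogs with their partners, RPL5, RPL11, the stalk proteins, RPS6, members whose other probe sets differed by over 0.3, and up to 3 called genes per list. Other genes were named after their values were seen, such as PABPC1, RPL36, RPS25 and RPS27L. Alternatives were a filter on dim genes, only the compared groups, cyclic loess, median centring, array weights, intensity-dependent robust variances, the replicate number as a block, 2 other choices of probe set, leaving out each array and, chosen after seeing the data, only members above 12.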

Additional observations from a re-analysis of the deposited data

Results flagged for a closer look

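The results below come from probe sets that the comparisons do not use, and were listed because some of them passed an adjusted p of 0.05 against control arrays by limma over all 22215 probe sets. Of the 57 probe sets with several symbols, 1 fell after MWCNT at 100 ug/ml for 1 h, beside 1.45% of all probe sets called. After TiO2 at 100 ug/ml for 1 h 1 fell, beside 2.63%. After TiO2 at 10 ug/ml for 24 h 1 fell, beside 4.71%. With 24 h of TiO2 at 100 ug/ml 2 of the 57 were called, 1 in each direction, beside 10.4%. Of the 38 dimmer single-symbol probe sets of the members, 2 were called after TiO2 at 100 ug/ml for 24 h: one of RPS28 fell by 0.22 ± 0.07 (adjusted p = 0.0441, mean level 7.43) and one of RPS12 rose by 0.26 ± 0.08 (adjusted p = 0.0482, mean level 7.69). All of these shares are near or below that of all probe sets.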

How the results depend on the processing

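The call of RPL36AL in the control over time held under every alternative run, and the other 7 calls each failed under at least 4. With 1 single-symbol probe set, RPL36AL was not put to the test by the 2 other choices of probe set. RPLP2 between the particles at 10 ug/ml and 24 h turned to 0.071 with its most variable probe set. Counts of called members below are to be read against 1 after TiO2 at 100 ug/ml at either time, 3 in the control over time, 2 and 1 between the particles at 10 and 100 ug/ml and 24 h, and 0 elsewhere. Where no cause is named, it was not tested. The share of all genes called was counted for the main fit and for the intensity-dependent robust variances only. Counts from the other refits therefore have no background and are no result about the members.

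Without dim genes, fewer genes were adjusted for. The filter kept genes with a mean above the median of all genes, 7.875, and so removed RPLP2, RPL10L and RPL3L. Calls of these 3 members could not recur in it. The counts were then 1 after TiO2 at 10 ug/ml and 2 after TiO2 at 100 ug/ml at 1 h, 3 after TiO2 at 100 ug/ml at 24 h, 0 and 2 between the particles at 10 and 100 ug/ml and 24 h, and 1 for the TiO2 100 effect at 24 h minus 1 h. With only the compared groups, which leaves fewer samples, they were 0 after TiO2 at 100 ug/ml at 1 h and 0 at 24 h, 1 in the control over time, and 0 and 3 between the particles at 10 and 100 ug/ml and 24 h. Array weights gave 1 and 2 after TiO2 at 10 and 100 ug/ml at 1 h, 2 after MWCNT at 100 ug/ml at 24 h, 1 and 3 after TiO2 at 10 and 100 ug/ml at 24 h, 11 in the control over time, 5 between the particles at 100 ug/ml and 24 h, and 1, 1 and 3 for the MWCNT 100, TiO2 10 and TiO2 100 effects between the times. Intensity-dependent robust variances gave 1 and 3 after TiO2 at 10 and 100 ug/ml at 1 h, 4 after TiO2 at 100 ug/ml at 24 h, 12 in the control over time, 2 between the particles at 100 ug/ml and 24 h and 2 for the TiO2 100 effect between the times. In the same order, that fit called 0.828, 2.45, 14, 32.4, 13.2 and 2.52% of all genes.

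Cyclic loess left 0 calls after TiO2 at 100 ug/ml at 24 h, and 1 and 0 between the particles at 10 and 100 ug/ml and 24 h. It moved the members' median to -0.000161 for MWCNT at 100 ug/ml, -0.0148 and -0.0134 for TiO2 at 10 and 100 ug/ml at 1 h. At 24 h it gave -0.000958 for MWCNT at 10 ug/ml and -0.0157 and -0.0203 for TiO2 at 10 and 100 ug/ml. The median became 0.018 in the control over time, 0.0218 and 0.0176 between the particles at 10 and 100 ug/ml and 24 h, and 0.000786 for the TiO2 dose at 24 h. For the effects between the times it was 0.00738 and 0.00433 for MWCNT and -0.00216 and -0.0068 for TiO2 at 10 and 100 ug/ml. Centring arrays on their medians gave 6 calls in the control over time and 1 for the TiO2 100 effect between the times. Its medians were -0.0438 for TiO2 at 10 ug/ml at 1 h, 0.036 for TiO2 at 100 ug/ml at 24 h, -0.0453 in the control over time, -0.00299 and -0.0286 between the particles at 10 and 100 ug/ml and 24 h, and 0.0594 and 0.0668 for the TiO2 10 and 100 effects between the times.

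The most variable probe set of each gene gave 2 calls after TiO2 at 100 ug/ml at 24 h, 5 in the control over time and 2 between the particles at 100 ug/ml and 24 h, with medians of -0.0519 in the control over time, -0.0212 between the particles at 100 ug/ml and 24 h and 0.0586 for the TiO2 100 effect between the times. The mean of a gene's probe sets gave 2, 1 and 2 calls after TiO2 at 100 ug/ml at 24 h and between the particles at 10 and 100 ug/ml and 24 h, with medians of -0.0352 in the control over time and -0.0218 between the particles at 100 ug/ml and 24 h. Only members above 12, an alternative chosen after seeing the data, left 0 calls after TiO2 at 100 ug/ml at 24 h and 0 and 0 between the particles at 24 h. The members called in those comparisons, RPL3L, RPLP2, RPL10L and RPL39L, average below 12, so these counts follow from the choice.

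Replicate numbers did not pair the arrays: over 45 pairs of groups the correlation of same-numbered deviations had a median of 0.00905 (-0.264 to 0.437), no pair had all 3 above 0.1, and 13 of 30 arrays correlated best with their own number. With the replicate block the count between the particles at 100 ug/ml and 24 h was 2, and no other count changed by more than 1.5 times.

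Leaving out each array in turn gave 0 to 2 calls after TiO2 at 100 ug/ml at 1 h, with medians from -0.0341 to -0.0115. It gave 0 to 1 after TiO2 at 10 ug/ml and 0 to 1 at 100 ug/ml at 24 h, 1 to 3 in the control over time, 0 to 1 between the particles at each dose at 24 h and 0 to 1 for the TiO2 100 effect between the times. Between the particles at 100 ug/ml and 1 h the median ran from -0.0102 to 0.0133.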
